A study of Homo sapiens with 6 samples.

Results

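The cytochrome P450 genes taken here are the 55 genes, of 58233 listed, whose symbol is the stem CYP followed by a family number, a subfamily letter and a member number. Symbols with a pseudogene suffix or a hyphen fall outside that form, though CYP2D7, annotated as a polymorphic pseudogene, is inside it, and CYP51A1, a sterol demethylase gene, was left out. The study sequenced RNA from Huh7, a cell line grown from a human liver cancer, in 6 libraries. In 3 control libraries the cells carried an empty plasmid, and in 3 others a plasmid that overexpresses TP53TG1, a long noncoding RNA. Whether replicates came from separate cultures, which promoter and which TP53TG1 transcript the plasmid carries, what share of cells took it up and when cells were taken are not stated in the labels. The p-values therefore rest on the spread among these libraries alone, which may be technical.

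P450 enzymes are heme proteins that insert an oxygen atom into drugs, steroids, bile acids, vitamins and fatty acids. Those in the endoplasmic reticulum take electrons from the reductase POR, with cytochrome b5 as a second donor, and those in mitochondria take them from ferredoxin. In hepatocytes many of these genes are switched on by HNF4A and C/EBP factors and, after exposure to foreign compounds, by the receptors AHR, CAR (gene NR1I3) and PXR (gene NR1I2).

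Values are FPKM, fragments scaled to transcript length and to library depth, with all transcripts of a gene added. Averaged over all 6 libraries, 17 of the 55 genes were at 1 FPKM or above, and these alone entered the comparison, within a fit over the 12853 genes that did so. In order of mean they were CYP4F11, CYP1B1, CYP27A1, CYP3A5, CYP2R1, CYP4F12, CYP2S1, CYP20A1, CYP4F3, CYP2B6, CYP39A1, CYP4V2, CYP2C18, CYP26B1, CYP1A1, CYP2W1 and CYP19A1. The lowest of them, CYP19A1, averaged 1.01 FPKM, and the gene just under the line, CYP27B1, averaged 0.927 FPKM. None of the 17 differed significantly between the groups, and 15 of the 17 had a lower mean with TP53TG1 on the log scale, where 91.4% of all genes tested did. On deposited FPKM the genes with the lowest fold changes were CYP4F3, CYP4F12 and CYP4F11, which lie in 1 cluster on chromosome 19 (after median-of-ratios scaling CYP2B6 took the place of CYP4F11), and the one with the highest was CYP1A1. In libraries of whole cultures, fewer cells that express a gene and less RNA per cell cannot be told apart.

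The libraries differ in scale. Total FPKM lay between 599081 and 890541, and if the step seen among low values is 1 fragment, 1 FPKM of a transcript of 1500 nt would rest on 23.2 to 28.7 fragments. The median log2 fold change of all genes tested was -0.35, and 0.00 after median-of-ratios scaling, which sets the libraries to a common level and gave TP53TG1 replicate 1 a factor of 0.601 against 1.006 to 1.19 in the other 5. Changes are therefore given on both scales. TP53TG1, which checks the labels, stood at 10.6, 5.25 and 6.15 FPKM in the controls and at 69.8, 134 and 70.5 FPKM with its plasmid (log2 fold change 3.46, SE 0.381, adjusted p = 0.0573 by limma, and 8.97e-22 with the replicate block). The block fit estimated an infinite prior, which gives genes of like level nearly the same error, 0.331 to 0.337 for the 17 P450 genes, so its p-values hardly use the spread of the single gene. Of 8 hepatocyte marker genes 5 reached a mean of 1 FPKM. All 8 summed to 22.0 to 31.6 FPKM in the controls and 10.4 to 29.7 with TP53TG1. ALB, the serum albumin gene, lay between 0.53 and 1.22 FPKM, and APOA1 and TTR averaged 0.277 and 0.0517 FPKM. The other hepatocyte markers, HNF4A, TF, AFP, APOB and SERPINA1, averaged 10.8, 7.345, 1.98, 1.43 and 1.06 FPKM. All 5 intestinal epithelial markers reached a mean of 1 FPKM. Their sum was 180 to 347 FPKM in the controls and 92.1 to 157 with TP53TG1. The intestinal sum lay above the hepatocyte sum in every library. KRT20, LGALS4, CDH17, CDX2 and VIL1 of the intestinal list averaged 114, 37.4, 22.1, 7.86 and 3.22 FPKM. Whether this profile matches the named cell line was not tested. The 5 fibroblast markers summed to 19.1 to 21.4 and 22.5 to 32.4 FPKM. On deposited FPKM the intestinal and fibroblast sums separated the groups without overlap, while the hepatocyte sums overlapped. Of single genes tested, 13.3% were lower and 0.428% higher with TP53TG1 without overlap. These marker sums were not scaled, and their part in the P450 values was not tested. CDH5 and PTPRC, defining genes of endothelial and blood cells, stayed at or under 0.03 and 0.13 FPKM, while PECAM1 of the endothelial list reached 5.72 FPKM and CD68 of the blood list lay between 32.4 and 65.2 FPKM.

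Promoters are shown for the 4 genes whose values the account turns on and for which one was at hand: CYP4F3, CYP4F11 and CYP2B6, at the low end of the fold changes, and CYP1A1 at the high end. Each runs 5′ to 3′ from 250 bases before to 50 bases after a RefSeq transcription start (GRCh38.p14). Capitals mark letters that match, on either strand, the antioxidant response core TGACNNNGC, the TATA box TATAAA, the GC box GGGCGG, the CCAAT box or the AHR core TNGCGTG.
CYP4F3 (chr19:15641062-15641361, plus strand): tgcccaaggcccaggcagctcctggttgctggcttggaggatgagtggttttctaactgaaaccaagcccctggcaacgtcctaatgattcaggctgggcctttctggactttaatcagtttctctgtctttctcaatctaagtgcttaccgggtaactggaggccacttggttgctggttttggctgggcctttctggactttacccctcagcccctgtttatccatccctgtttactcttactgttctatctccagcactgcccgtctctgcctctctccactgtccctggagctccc
CYP4F11 (chr19:15934818-15935117, minus strand): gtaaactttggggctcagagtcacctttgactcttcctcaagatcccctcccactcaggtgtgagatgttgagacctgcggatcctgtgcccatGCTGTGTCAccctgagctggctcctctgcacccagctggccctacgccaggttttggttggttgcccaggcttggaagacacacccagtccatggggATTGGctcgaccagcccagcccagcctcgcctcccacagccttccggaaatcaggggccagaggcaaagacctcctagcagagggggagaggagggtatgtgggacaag
CYP2B6 (chr19:40991032-40991331, plus strand): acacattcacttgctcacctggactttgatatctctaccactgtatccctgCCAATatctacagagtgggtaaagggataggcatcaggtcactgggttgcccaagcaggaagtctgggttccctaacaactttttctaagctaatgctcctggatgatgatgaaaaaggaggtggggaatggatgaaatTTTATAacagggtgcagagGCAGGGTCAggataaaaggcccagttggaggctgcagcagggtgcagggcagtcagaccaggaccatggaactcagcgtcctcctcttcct
CYP1A1 (chr15:74725479-74725778, minus strand): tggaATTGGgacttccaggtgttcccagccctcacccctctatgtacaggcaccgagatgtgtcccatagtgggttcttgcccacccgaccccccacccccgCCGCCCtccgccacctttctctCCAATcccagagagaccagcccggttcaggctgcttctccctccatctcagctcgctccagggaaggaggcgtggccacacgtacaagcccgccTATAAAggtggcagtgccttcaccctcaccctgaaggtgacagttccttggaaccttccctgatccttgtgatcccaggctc
The antioxidant response core occurred once in the CYP4F11 window shown, not in the window of its other start, and once in CYP2B6, and in 13.3% of all 35116 promoter windows. None of the 5 motifs was found in the CYP4F3 window. CYP1A1 held a TATA box, a GC box and 2 CCAAT boxes, which occur in 11.5%, 44.95% and 34.6% of all windows, and no AHR core, which 5.51% hold. Sites more than 250 bases before a start fall outside the windows and were not searched. Of the 17 genes 14 had an entry, with 24 windows in all, and the AHR core was found in 1 of them, at CYP20A1. The antioxidant response core was found in 3 genes, of which the other was CYP4V2. CYP1B1, CYP4F12 and CYP2C18 had no entry.

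**Figure D1:**
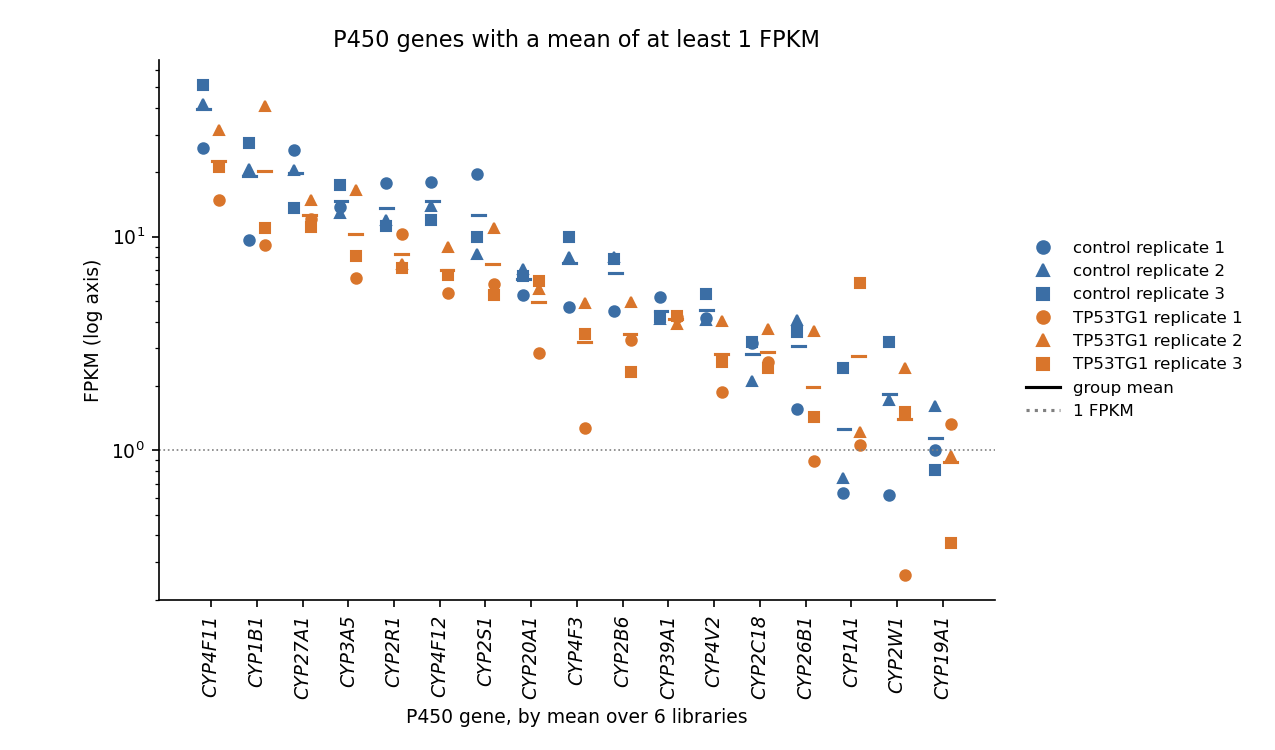
FPKM (log axis) of the 17 P450 genes that average 1 FPKM or more, in order of level, with 1 point per library, blue for control and orange for TP53TG1, and short lines for group means. CYP4F11 is the highest at 14.8 to 51.6 FPKM, and the groups are apart only for CYP2R1, CYP4F12 and CYP4V2.

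Summed over the 55 genes, P450 FPKM came to 168, 177 and 198 in control replicates 1, 2 and 3 and to 88.5, 172 and 105 in TP53TG1 replicates 1, 2 and 3. TP53TG1 replicate 2 lay among the controls and the other TP53TG1 libraries below them. These sums are of deposited FPKM and were not scaled, and TP53TG1 replicate 1 had a factor of 0.601. For the 17 tested genes the median ratios by number were 0.569, 0.894 and 0.482 before scaling. After scaling they were 1.05, 0.963 and 0.567. Genes for fatty acid and eicosanoid P450s and for xenobiotic P450s made up most of this sum, at 68.2 ± 12.7 and 62.5 ± 11.4 FPKM in the controls and 36.8 ± 13.2 and 50.6 ± 27.7 FPKM with TP53TG1 (SD, n = 3 each). The fatty acid sum ranged from 54.7 to 80.1 FPKM in the controls and from 24.5 to 50.7 FPKM with TP53TG1, so the groups did not overlap. Nor did they for the vitamin D and retinoid sum, at 17.2 to 20.8 and 9.65 to 13.4 FPKM. On this scale 13.3% of all single genes tested were lower without overlap. Bile acid and cholesterol breakdown genes summed to 24.4 ± 6.37 and 16.9 ± 1.79 FPKM, and vitamin D and retinoid genes to 18.4 ± 2.11 and 11.8 ± 1.93 FPKM (SD, n = 3 each). The 6 steroid hormone genes summed to 0.81 to 1.61 FPKM in the controls and 0.37 to 1.33 FPKM with TP53TG1. CYP4F11 alone held 15.5% to 26.0% of the P450 sum of a library, CYP1B1 5.74% to 23.9% and CYP27A1 6.89% to 15.2%.

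**Figure D2:**
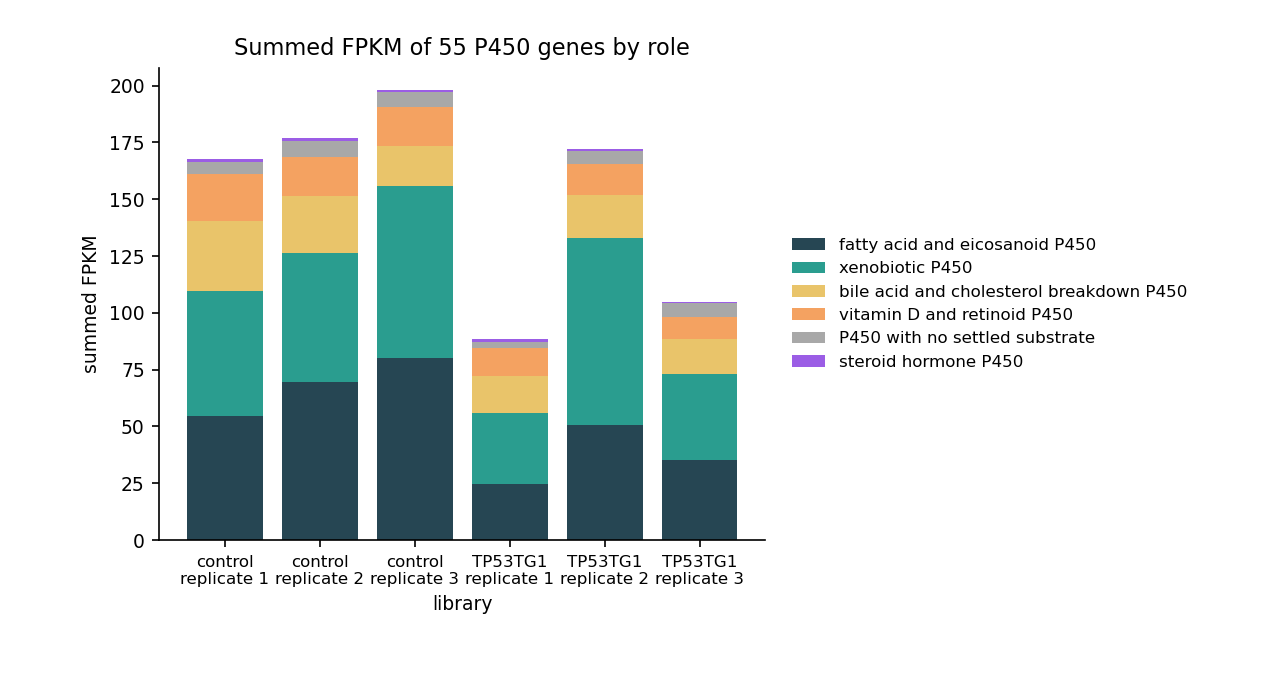
Summed FPKM as deposited, without scaling, of all 55 P450 genes in each library, stacked by the role of the gene. The sum is 168 to 198 FPKM in the controls and 88.5 to 172 FPKM with TP53TG1, and the fatty acid and xenobiotic groups are the largest layers in all 6 libraries.

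The fatty acid group had the lowest median fold change of the roles. All 4 that were tested were lower than the all-gene median, with a median log2 fold change of -0.89, and of -0.51 after median-of-ratios scaling. None passed the test (limma, Benjamini-Hochberg adjusted p = 0.748 each). CYP4F3, an omega-hydroxylase that inactivates leukotriene B4, stood at 4.71, 8.05 and 9.96 FPKM in control replicates 1, 2 and 3 and at 1.27, 4.90 and 3.52 FPKM in TP53TG1 replicates 1, 2 and 3. The highest TP53TG1 value lay just above the lowest control, and every TP53TG1 library lay below the control of its own number. The log2 fold change of CYP4F3 on the log2(FPKM + 1) scale, which understates changes of low genes, was -1.08 (SE 0.458, unadjusted p = 0.0438 by limma), and -0.78 (SE 0.334) after scaling. Without TP53TG1 replicate 1 it was -0.68. With the replicate number as a block it had the lowest adjusted p of any P450 gene in any fit, 0.0768 by limma, and 0.762 when scaling was added. The exact two-sided permutation test gave p = 0.2, where 3 against 3 libraries allow no less than 0.1.

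CYP4F12, a fatty acid hydroxylase that also oxidizes some antihistamines, stood at 18.0, 13.9 and 12.0 FPKM in the controls and at 5.48, 8.97 and 6.62 FPKM with TP53TG1. All controls lay above all TP53TG1 libraries, and among the 17 tested genes this was so both before and after scaling for CYP4F12 alone. The log2 fold change of CYP4F12 was -0.97 (unadjusted p = 0.0194 by limma), and -0.60 (SE 0.261) after scaling, and the exact two-sided permutation test gave p = 0.1. CYP4F11, an omega-hydroxylase of long-chain fatty acids and the P450 gene with the highest summed level here, stood at 26.1, 41.8 and 51.6 FPKM in the controls and at 14.8, 31.6 and 21.2 FPKM with TP53TG1. TP53TG1 replicate 2 lay above control replicate 1, so the groups overlapped. For CYP4F11 the log2 fold change was -0.80 (SE 0.379), and -0.41 (SE 0.279) after scaling. CYP4V2, an omega-hydroxylase mutated in Bietti crystalline dystrophy of the retina, stood at 4.15, 4.08 and 5.39 FPKM against 1.87, 4.02 and 2.60 FPKM. TP53TG1 replicate 2 lay just under the lowest control, and the groups overlapped after scaling, with log2 fold changes of -0.56 (SE 0.355) and -0.26 (SE 0.245).

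CYP4F3, CYP4F12 and CYP4F11 lie in a cluster of 6 CYP4F genes on chromosome 19, from 15508493 to 15934867 (GRCh38, GENCODE 29). CYP4F3 spans 15640897 to 15662825 and CYP4F12 15672757 to 15697174 on the plus strand, and CYP4F11 15912367 to 15934867 on the minus strand. The other members of the cluster were low: CYP4F2, a vitamin K hydroxylase, lay between 0.09 and 0.57 FPKM, CYP4F8 between 0 and 0.04 FPKM, and CYP4F22, an acyl ceramide enzyme of skin, was listed at 0 in all 6 libraries. Genes this alike can share fragments. Of the 50-base windows of the main CYP4F3 transcript, 9.88% occurred word for word in a transcript of another gene, most of them in CYP4F2, against 5.31% for CYP4F12 and 1.06% for CYP4F11. The CYP4F3 and CYP4F12 main transcripts shared 0.305% of the windows of CYP4F12.

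Genes for xenobiotic P450s showed no common direction. Of 21 such genes 7 were tested, 3 of them lower than the all-gene median, with a median log2 fold change of -0.26, and of -0.10 after scaling. CYP1B1, which oxidizes aromatic hydrocarbons and estrogens and is induced through AHR, stood at 9.63, 20.7 and 27.6 FPKM in the controls and at 9.11, 41.0 and 11.0 FPKM with TP53TG1. TP53TG1 replicate 2 was the highest library and TP53TG1 replicate 1 the lowest, and the ratios of TP53TG1 to control by number were 0.946, 1.99 and 0.399. The log2 fold change of CYP1B1 was -0.12 (SE 0.590, adjusted p = 0.908 by limma), and 0.26 (SE 0.510) after scaling. The antisense gene CYP1B1-AS1, which shares 678 exon bases with CYP1B1 on the other strand in GENCODE 29, stood at 3.32, 6.80 and 10.7 FPKM against 6.96, 8.29 and 3.49 FPKM. Whether the libraries keep the strand is not given in the sources used here, so fragments of the shared bases cannot be assigned to either gene.

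CYP1A1, the classic AHR-induced enzyme for aromatic hydrocarbons, stood at 0.63, 0.74 and 2.42 FPKM in the controls and at 1.06, 1.22 and 6.05 FPKM with TP53TG1. It was the one P450 gene higher in all 3 pairs by number before scaling, at ratios of 1.68, 1.65 and 2.50, and 1.24% of all genes tested were so. Control replicate 3 lay above 2 of the TP53TG1 libraries, so the groups overlapped. The log2 fold change of CYP1A1 was 0.58 (SE 0.535, adjusted p = 0.748 by limma), and 0.80 (SE 0.506) after scaling. It dropped to 0.00 without TP53TG1 replicate 3, the library with 6.05 FPKM. With block and scaling together its unadjusted p was 0.0174 and its adjusted p 0.837 (limma).

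CYP3A5, a drug and steroid hydroxylase of liver and gut, stood at 13.8, 12.9 and 17.6 FPKM in the controls and at 6.41, 16.5 and 8.12 FPKM with TP53TG1. TP53TG1 replicate 2 lay among the controls and the other TP53TG1 libraries below them. The log2 fold change of CYP3A5 was -0.56 (SE 0.394), and -0.19 (SE 0.279) after scaling. The other CYP3A genes were near 0: CYP3A7, the main fetal liver form, reached 0.25 FPKM, CYP3A4, the main adult liver form, 0.02 FPKM, and CYP3A43 was listed at 0. CYP2S1, an epithelial P450 that AHR also induces, stood at 19.7, 8.26 and 9.99 FPKM against 6.02, 11.0 and 5.34 FPKM. Control replicate 1 was the highest library, and without it the log2 fold change of CYP2S1 went from -0.66 to -0.31. CYP2B6, a CAR-induced drug-metabolizing enzyme, stood at 4.51, 8.03 and 7.86 FPKM against 3.29, 4.93 and 2.32 FPKM, with a log2 fold change of -0.79 (SE 0.386) and of -0.45 after scaling. Its pseudogene CYP2B7P, in which 10.02% of the 50-base windows of the main CYP2B6 transcript recur, averaged 3.68 ± 1.57 FPKM in the controls and 1.64 ± 0.547 FPKM with TP53TG1 (SD, n = 3 each). Fragments of the shared stretches may be split between CYP2B6 and CYP2B7P.

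CYP2C18, a CYP2C enzyme found more in skin and gut than in liver, stood at 3.18, 2.11 and 3.21 FPKM in the controls and at 2.59, 3.69 and 2.42 FPKM with TP53TG1. Its group means differed by less than the spread within either group, at 2.83 ± 0.627 and 2.90 ± 0.689 FPKM (SD, n = 3 each), with log2 fold changes of 0.02 (SE 0.334) and, after scaling, 0.33 (SE 0.284). The other CYP2C genes, which carry much of the drug metabolism of adult liver, were low where reported here: CYP2C19 reached 0.43 FPKM, and CYP2C8 was listed at 0 in all 6 libraries. CYP2W1, a P450 described in colon tumours, stood at 0.62, 1.72 and 3.20 FPKM against 0.26, 2.44 and 1.51 FPKM, with groups that overlapped widely. CYP2E1, the ethanol-oxidizing P450, reached 0.56 FPKM, CYP2A6, the nicotine oxidase, 0.26 FPKM, and CYP1A2, the caffeine demethylase, 0.02 FPKM.

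**Figure D3:**
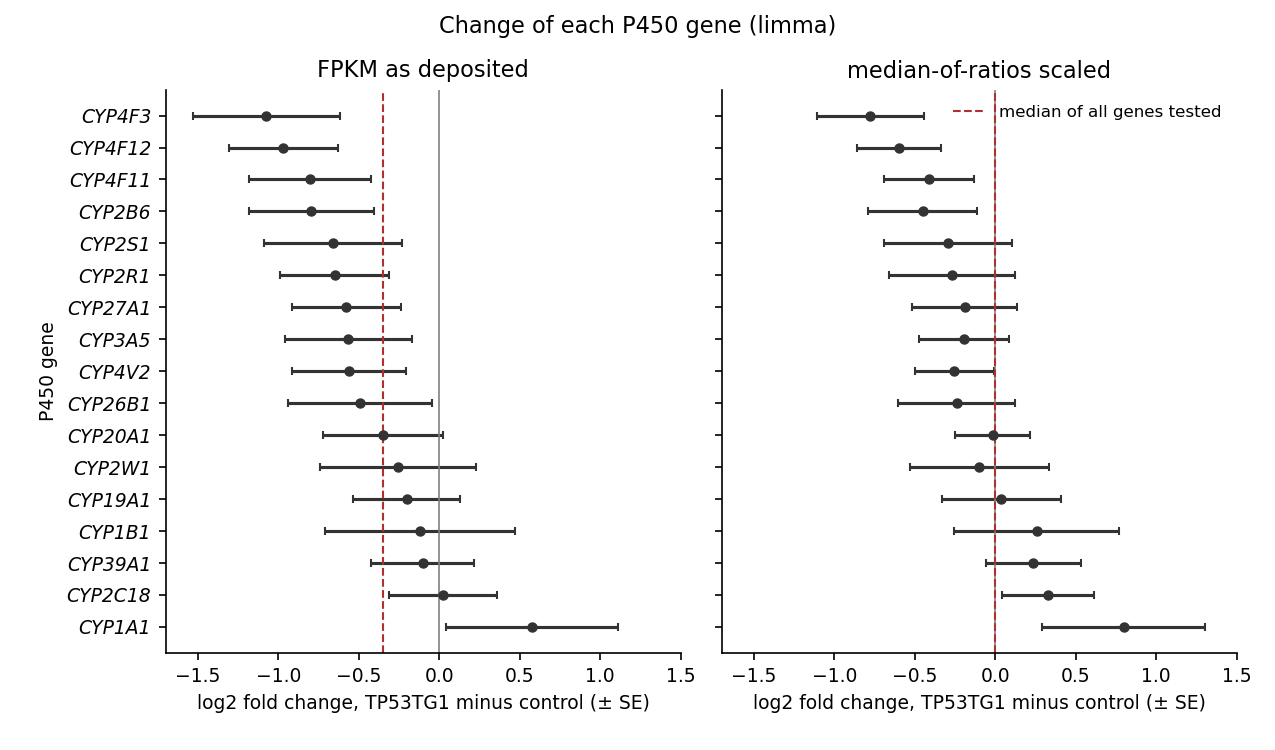
Log2 fold change of each of the 17 P450 genes, TP53TG1 minus control, with its SE from limma, for FPKM as deposited (left) and after median-of-ratios scaling (right), with the median of all genes tested as a dashed line. CYP4F3, CYP4F12 and CYP4F11 lie lowest on the left at -1.08, -0.97 and -0.80, and CYP1A1 is highest on both sides at 0.58 and 0.80.

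Of the 6 genes for bile acid synthesis and cholesterol breakdown, 2 reached a mean of 1 FPKM. CYP27A1, the mitochondrial enzyme that hydroxylates the sterol side chain, stood at 25.4, 20.6 and 13.6 FPKM in the controls and at 12.1, 14.9 and 11.1 FPKM with TP53TG1. TP53TG1 replicate 2 lay above control replicate 3, while each TP53TG1 library lay below the control of its number, before and after scaling. On the log2 scale CYP27A1 differed by -0.58 (SE 0.337), and by -0.19 (SE 0.329) after scaling. CYP39A1, an oxysterol hydroxylase, stood at 5.20, 4.10 and 4.22 FPKM in the controls and at 4.19, 3.89 and 4.24 FPKM with TP53TG1. Its group means were 4.51 ± 0.603 and 4.11 ± 0.189 FPKM (SD, n = 3 each), and its log2 fold change was -0.10 (SE 0.319), and 0.23 (SE 0.295) after scaling. CYP7A1, the rate-limiting enzyme of bile acid synthesis, did not exceed 0.06 FPKM. CYP7B1 and CYP8B1, which act on later steps or the other branch of that pathway, were listed at 0 in all 6 libraries, and CYP46A1, the brain cholesterol hydroxylase, did not exceed 0.06 FPKM.

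Among the 7 genes for vitamin D and retinoids, 2 were tested. CYP2R1, which performs the first hydroxylation of vitamin D in the liver, stood at 17.8, 12.0 and 11.2 FPKM in the controls and at 10.3, 7.44 and 7.11 FPKM with TP53TG1. All controls lay above all TP53TG1 libraries, and the ratios by number were alike at 0.579, 0.622 and 0.633. CYP2R1 had a log2 fold change of -0.65 (SE 0.339, adjusted p = 0.748 by limma) and the exact two-sided permutation test gave p = 0.1. After scaling the groups overlapped, TP53TG1 replicate 1 lay above control replicate 1, and the log2 fold change was -0.27 (SE 0.392). CYP26B1, which breaks down retinoic acid, stood at 1.56, 4.07 and 3.57 FPKM against 0.89, 3.64 and 1.44 FPKM, with groups that overlapped. CYP27B1, which makes the active form of vitamin D, reached 2.09 FPKM in control replicate 3 and lay between 0.27 and 0.89 FPKM in the other 5 libraries. CYP24A1, which inactivates it, reached 1.45 FPKM in TP53TG1 replicate 2 and lay between 0.21 and 0.52 FPKM in the others.

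CYP19A1, the aromatase that makes estrogens, was the only tested gene of 6 steroid hormone P450s, at 1.00, 1.61 and 0.81 FPKM in the controls and 1.33, 0.94 and 0.37 FPKM with TP53TG1. CYP11A1 and CYP21A2, enzymes of early and middle steps of steroid synthesis, were above 0 in control replicate 1 alone, at 0.08 and 0.06 FPKM, and CYP11B1, CYP11B2 and CYP17A1 were listed at 0 in all 6 libraries. CYP20A1, whose substrate is not settled, stood at 5.33, 7.09 and 6.55 FPKM against 2.85, 5.72 and 6.21 FPKM. Its log2 fold change was -0.35 (SE 0.374), equal to the median of all genes, and -0.02 (SE 0.232) after scaling. Without TP53TG1 replicate 1 it was -0.0657.

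The remaining 38 genes stayed under a mean of 1 FPKM and were not tested. In 4 of them at least 1 library reached 1 FPKM: CYP27B1, CYP24A1, CYP2D7, a polymorphic pseudogene close to the drug oxidase CYP2D6, at 0.28 to 1.76 FPKM, and CYP2U1, a fatty acid hydroxylase, at 0.53 to 1.09 FPKM. A further 24 were above 0 in some library and under 1 FPKM in every one, of which 13 stayed under 0.1 FPKM throughout. CYP2F1, a lung P450, and CYP3A7 were lower in all TP53TG1 libraries than in all controls, before and after scaling. After scaling CYP46A1 was higher in all TP53TG1 libraries than in all controls, but nowhere above 0.0998, also too low to be read. The share of all genes under a mean of 1 FPKM that are apart in this way was not counted. CYP2F1 stood at 0.45, 0.67 and 0.48 FPKM in the controls and 0.11, 0 and 0.15 FPKM with TP53TG1, and CYP3A7 at 0.02, 0.25 and 0.10 FPKM against 0 in all 3, levels too low to be read as a difference. Genes under the mean that reached 1 FPKM in no library were named after their values were seen. The last 10 were listed at 0 in all 6 libraries. Here a value of 0 may be a failed estimate and does not show that a gene is silent.

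No P450 gene passed in any of the fits. With limma on the deposited FPKM, 0 of 17 were called, where 0.00778% of all 12853 genes were called higher and 0% lower. At an unadjusted p under 0.05 there were 2, CYP4F12 and CYP4F3, both lower, where 1.91% of all genes were lower and 0.436% higher at that level. After median-of-ratios scaling 0 of 17 were called, where 0.0156% of all genes were called higher and 0% lower, and 0 had an unadjusted p under 0.05, where 0.731% were higher and 0.436% lower at that level. With the replicate number as a block, which called 0.584% of all genes higher and 0.91% lower, 0 of 17 passed and 4 had an unadjusted p under 0.05, all lower: CYP4F3, CYP4F12, CYP4F11 and CYP2B6. That fit gave 9.65% of all genes such a p on the lower side and 1.08% on the higher. With block and scaling 0 of 17 passed, where 0.0467% of all genes were called higher and 0% lower. CYP4F3 and CYP4F12 were then lower and CYP1A1 higher at an unadjusted p under 0.05, where 2.14% of all genes were lower and 3.17% higher. The median log2 fold change of the 17 genes was -0.56, against -0.35 for all genes, a gap of -0.21 that shrank to -0.0373 without TP53TG1 replicate 3, and 11 of 17 lay below the latter, where 50% of all genes do. After scaling the medians were -0.19 and 0.00, and 12 of 17 lay below the median and below 0, where 50% and 50.9% of all genes do.

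Groups did not overlap for 3 of the 17 genes, CYP2R1, CYP4F12 and CYP4V2, all lower with TP53TG1, where 13.3% of all genes tested were lower and 0.428% higher without overlap. After scaling this held for CYP4F12 alone, and for 2.05% of all genes on the lower and 2.01% on the higher side. By replicate number, 9 of the 17 genes were lower in all 3 pairs, against 44.8% of all genes tested. After scaling 3 were lower in all 3 pairs, CYP4F3, CYP4F12 and CYP27A1, and 2 were higher, CYP1A1 and CYP39A1, where 13.8% and 12.9% of all genes were. The shares by pair are near those of all genes. TP53TG1 replicate 1 held the lowest value of 9 genes and TP53TG1 replicate 3 of 5, and after scaling they held the lowest of 3 and 8. The median ratio of the 17 genes by number was 0.569, 0.894 and 0.482, and 1.05, 0.963 and 0.567 after scaling, so that pair 3 was lowest on both scales.

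**Figure D4:**
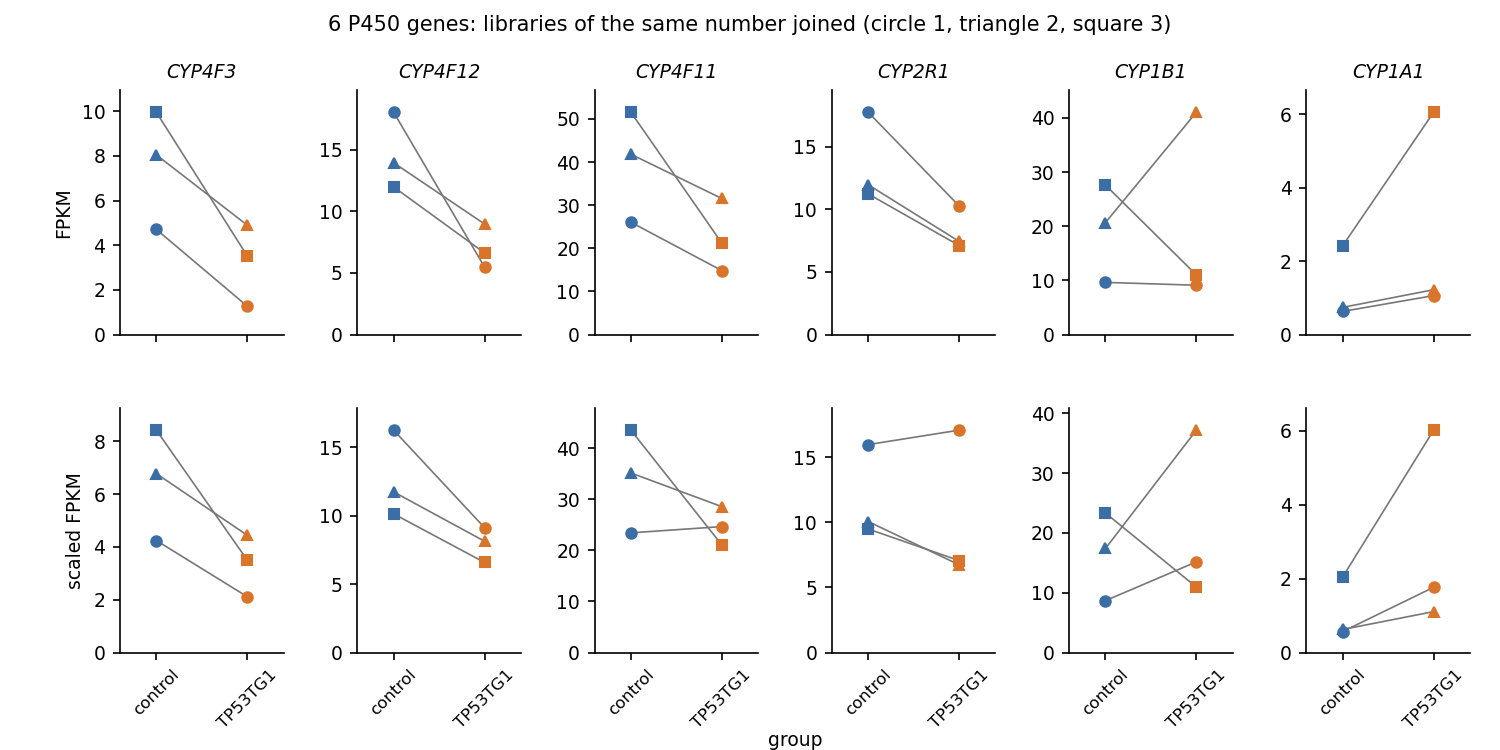
FPKM as deposited (upper row) and after median-of-ratios scaling (lower row) of 6 P450 genes, with a line from the control to the TP53TG1 library of the same number and a y axis from 0 for each gene. CYP4F3 and CYP4F12 go down in all 3 pairs in both rows, CYP1A1 goes up in all 3, and CYP1B1 goes up in pair 2 and down in pair 3.

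For several genes much of the value was assigned to transcripts that are not annotated as protein coding. Such coding transcripts held 13.9% to 71.0% of the FPKM of CYP3A5, 11.9% to 33.1% of CYP2R1 and 29.6% to 68.6% of CYP4F12. Among the 4 highest transcripts of each were retained-intron or nonsense-mediated decay transcripts. For CYP3A5 and CYP4F12 the 2 libraries numbered 1 had the highest coding shares, at 38.2% and 71.0% and at 42.02% and 68.6%. For CYP20A1 and CYP4V2 they had the lowest, at 21.0% and 25.6% and at 30.8% and 18.2%. In CYP1B1, CYP4F11, CYP27A1, CYP2S1, CYP2C18 and CYP26B1 coding transcripts held at least 89.9% in every library. With the highest transcript of each gene alone, 14 of the P450 genes averaged 1 FPKM or more and the log2 fold changes of CYP4F3, CYP4F12 and CYP4F11 were -0.94, -0.67 and -0.66.

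**Figure D5:**
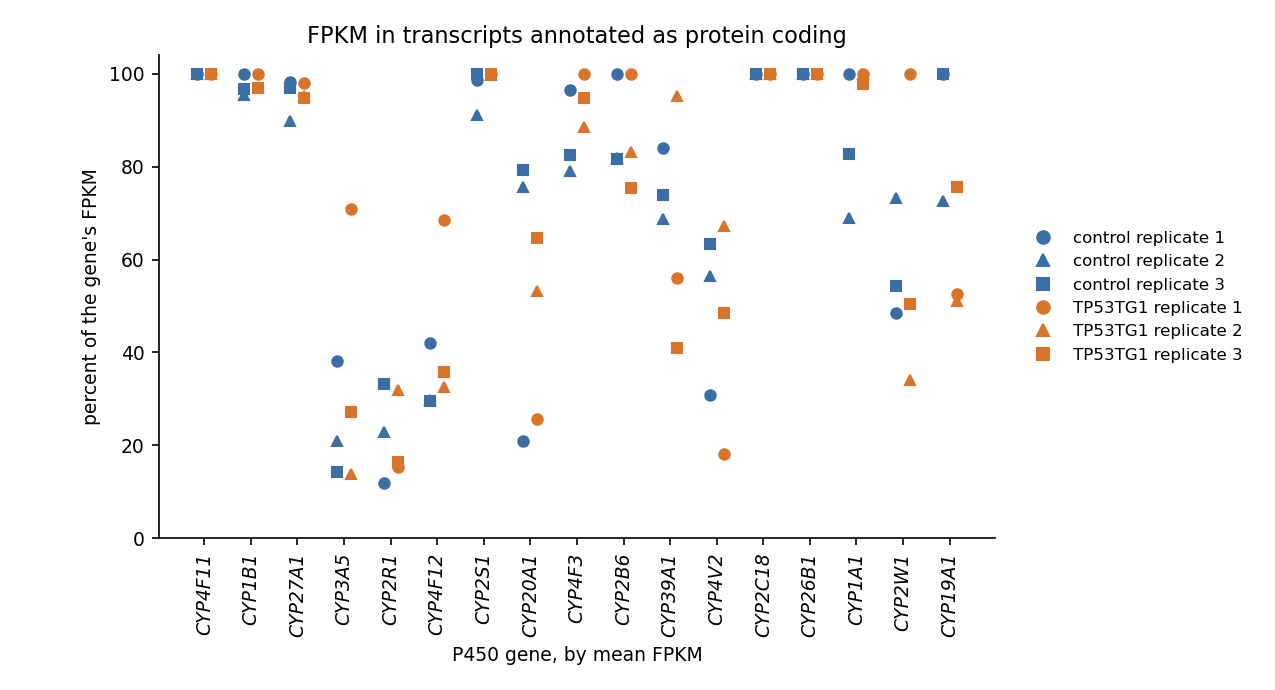
Percent of the FPKM of each of the 17 P450 genes that lies in transcripts annotated as protein coding, with 1 point per library. CYP3A5, CYP2R1, CYP4F12 and CYP4V2 lie at or under 71.0% in all libraries, and CYP4F11, CYP2C18 and CYP26B1 at 100%.

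Genes that serve P450 enzymes were expressed, and none of those tested passed, with or without the block. From each list genes with the smallest p are named, and CYB5A, ALAS1, AHR, AHRR, TIPARP, HNF4A and the NR genes were added after their values were seen. Of 12 electron donor and partner genes 11 were tested, with a median log2 fold change of -0.38, and of 0.02 after scaling. POR, the reductase of all microsomal P450s, stood at 116, 85.4 and 101 FPKM in the controls and at 87.6, 75.5 and 75.8 FPKM with TP53TG1. For POR the log2 fold change was -0.33, and 0.07 after scaling. FDX1, the ferredoxin of mitochondrial P450s such as CYP27A1, stood at 18.7, 12.6 and 10.3 FPKM against 8.54, 8.39 and 10.7 FPKM. CYB5R1, a cytochrome b5 reductase, averaged 14.9 ± 2.12 and 11.0 ± 2.14 FPKM (SD, n = 3 each), without overlap before scaling and with overlap after it. CYB5A, which encodes cytochrome b5, averaged 39.9 ± 8.99 and 43.0 ± 5.63 FPKM (SD, n = 3 each). Of 14 heme synthesis and breakdown genes 13 were tested, with a median of -0.34, and of 0.06 after scaling. PPOX, a late enzyme of the pathway, averaged 6.61 ± 1.68 and 4.03 ± 0.656 FPKM (SD, n = 3 each), without overlap before scaling. Lower without overlap before scaling were 4 of the 13 heme genes and 1 of the 11 partner genes, where 13.3% of all genes tested were. After scaling it was 0 in both lists, where 2.05% of all genes were. ALAS1, the rate-limiting enzyme of heme synthesis in liver, averaged 111 ± 2.67 and 94.1 ± 19.02 FPKM (SD, n = 3 each). For ALAS1 the log2 fold change was -0.25, and 0.15 after scaling.

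Of the receptors named at the start, PXR and CAR had scarce transcripts, while AHR and other regulators were present. NR1I2 stayed at or under 0.38 FPKM and NR1I3 at or under 0.41 FPKM, NR1H4, the bile acid receptor, reached 0.03 FPKM, and NR0B2 was listed at 0. Of 27 regulator genes 16 were tested and 0 passed, with a median log2 fold change of -0.47, and of -0.12 after scaling. Without overlap, 5 of the 16 were lower before scaling and 0 after it, where 13.3% and 2.05% of all genes tested were. CEBPB, a liver and acute phase transcription factor, stood at 107, 93.7 and 116 FPKM in the controls and at 63.9, 74.1 and 32.3 FPKM with TP53TG1, with no overlap before scaling (log2 fold change -0.96, adjusted p = 0.748 by limma). CEBPA, its relative, averaged 23.3 ± 8.83 and 14.2 ± 0.515 FPKM, and RXRB, a partner of many nuclear receptors, 20.0 ± 2.31 and 13.4 ± 2.37 FPKM (SD, n = 3 each), likewise without overlap before scaling and with overlap after it. HNF4A stood at 7.28, 14.98 and 13.9 FPKM against 2.57, 14.6 and 11.4 FPKM. AHR stood at 9.93, 42.5 and 41.0 FPKM against 4.62, 42.01 and 16.2 FPKM. Its 3 lowest libraries were also the 3 lowest of CYP1B1, a match picked out after the values were seen. CYP1A1 and CYP2S1, also induced through AHR, did not share it. They were highest in libraries among those 3, at 6.05 FPKM in TP53TG1 replicate 3 and 19.7 FPKM in control replicate 1. A link of AHR to these genes was not tested. AHRR, the AHR repressor and a further AHR target, lay between 0.65 and 1.36 FPKM, and TIPARP, another, stood at 19.3, 21.9 and 27.1 FPKM against 11.2, 30.1 and 18.4 FPKM.

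Other detoxification genes gave 0 calls without the block as well. Of 22 UDP-glucuronosyltransferase genes 6 were tested, with a median log2 fold change of -0.22, which turned to 0.14 after scaling. UGT1A6, a phenol-conjugating form, averaged 327 ± 60.7 FPKM in the controls and 219 ± 73.4 FPKM with TP53TG1 (SD, n = 3 each). UGT1A1, which conjugates bilirubin, averaged 119 ± 19.2 and 100.4 ± 22.4 FPKM (SD, n = 3 each). For UGT1A1 the log2 fold change was -0.26, and 0.15 after scaling. The UGT1A genes share their last exons, so fragments may be split among them. Of 9 epoxide hydrolase and carboxylesterase genes 5 were tested, and EPHX1, which opens epoxides that P450s form, averaged 179 ± 55.2 and 111 ± 2.61 FPKM (SD, n = 3 each). CES1, the main liver carboxylesterase, averaged 494 ± 47.0 and 336 ± 76.1 FPKM (SD, n = 3 each), and both genes were apart before scaling and overlapped after it. Of 11 flavin monooxygenase and aldehyde dehydrogenase genes 6 were tested. Among them ALDH1A1, a retinal dehydrogenase, stood at 735, 737 and 607 FPKM in the controls and at 279, 482 and 320 FPKM with TP53TG1, with no overlap on either scale. ALDH1A1 had a log2 fold change of -0.97 (SE 0.270). By limma its adjusted p was 0.748, against 0.0107 with the replicate block and 0.758 with block and scaling. The block fit called 0.91% of all genes tested lower and 0.584% higher. ALDH1L1, a folate enzyme, averaged 2.46 ± 0.815 and 1.13 ± 0.377 FPKM (SD, n = 3 each), also without overlap on either scale. Of 16 steroid and bile acid partner genes 9 were tested. SRD5A1, a steroid reductase, averaged 21.0 ± 2.96 and 12.0 ± 3.17 FPKM (SD, n = 3 each), without overlap on either scale. HSD3B7, a bile acid enzyme, averaged 15.5 ± 9.07 and 9.14 ± 3.58 FPKM (SD, n = 3 each). Across all genes tested, 13.3% were lower without overlap before scaling and 2.05% after it.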

How the data were processed

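Libraries were prepared from total RNA with an Illumina TruSeq kit, per the labels' protocols. Per the submitters' processing notes the tools were HISAT2 and StringTie and the genome GRCh38.p10, while their versions, settings and strandedness were not found there. Each deposited table lists 1 value per transcript, with 2 decimals. The headers name no unit, and the deposited values were taken as FPKM, since totals differ between libraries. Symbols blank in up to 88000 rows of a library were filled by transcript from the others, and transcripts were added per gene.

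Genes averaging 1 FPKM or more over the 6 libraries entered a limma 3.58.1 fit of log2(FPKM + 1) (mean-variance trend, Benjamini-Hochberg over all genes, threshold 0.05) in R 4.3.3. Tables were made in Python 3.11.15. The fit was tested on simulated data. Coordinates and transcript types came from GENCODE 29, which held 99.85% of the transcripts, and promoters from RefSeq. Median-of-ratios factors used tested genes above 0 in all libraries. Depth was read from genes with 1 transcript of 300 to 1500 nt, as percentile 5 of FPKM times kb, for values from 0.05 FPKM and products under 0.5. P450 genes from a mean of 1 FPKM up were named, as were those with 1 FPKM in some library. From other lists the genes with the smallest p were named, and further ones were added after their values were seen. Values of 2 genes are not reported here. Members and lists were chosen with earlier results of these data known.

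Both groups are numbered 1 to 3. Deviations from group means correlated across genes at 0.710, 0.562 and 0.289 for numbers 1, 2 and 3, above the limit of 0.1, but also at 0.400 and 0.302 between numbers 3 and 2. The pairing comes from the data, not from the labels. The fit with the replicate block left 2 residual degrees of freedom and had an infinite prior, so its errors are nearly the same for genes of like level. Pseudocounts, filters, scalings, the block, the trend, single transcripts and left-out libraries were tried as alternatives.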

Additional observations from a re-analysis of the deposited data

How the results depend on the processing

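Over 18 alternatives, no P450 gene passed (adjusted p from 0.0768 to 1.00 by limma), and 272 of 292 single-gene values kept their direction. The 20 that reversed belong to 6 genes. With median-of-ratios scaling, with or without the replicate block, CYP1B1 was at 0.26, CYP39A1 at 0.23 and CYP19A1 at 0.0367. With the same total per library CYP1B1 was at 0.12 and CYP39A1 at 0.11, and without both libraries numbered 1 plus scaling, an alternative added after seeing the data, at 0.0207 and 0.12. With the highest transcript alone CYP20A1 was at 0.10 and CYP2C18 at -0.0462. Leaving out 1 library each, CYP1B1 ran from -0.77 to 0.26, CYP2W1 from -0.61 to 0.15, CYP2C18 from -0.12 to 0.11 and CYP19A1 from -0.32 to 0.00818. The cause was not tested.

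The median of the P450 genes was -0.10 with no filter (45 genes), -0.19 with scaling, with or without the block, and -0.18 without both libraries numbered 1 plus scaling, and ran from -0.73 to -0.31 leaving out 1 library each. Its gap to the median of all genes ran from -0.29 to -0.0373 then and was 0.0272 with no filter. The count without overlap was 1 with either scaling, 7 without both libraries numbered 1 and 5 when scaling was added, and 3 to 10 leaving out 1 library each (7 without control replicate 1, 10 without TP53TG1 replicate 2), where fewer libraries separate more easily. TP53TG1 passed at a mean of at least 5 FPKM (3.46, adjusted p = 0.0417), with scaling (3.83, 0.0465), with the replicate block (3.46, 8.97e-22), with both (3.83, 0.0106) and without both libraries numbered 1 plus scaling (4.04, 0.0333). The block changed no call of a P450 gene. Near 1 FPKM few fragments limit each value.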

Other observations

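The enzymes encoded by TBXAS1 and PTGIS, which make thromboxane and prostacyclin from the same prostaglandin, are P450s that do not carry the CYP stem. TBXAS1 stood at 15.6, 12.6 and 12.3 FPKM in the controls and at 6.60, 11.6 and 11.2 FPKM with TP53TG1, and PTGIS averaged 2.45 ± 1.25 and 1.103 ± 0.374 FPKM (SD, n = 3 each). Both were lower in all TP53TG1 libraries than in all controls before scaling, as were 13.3% of all genes tested, and overlapped after it. Neither passed the test (log2 fold changes -0.46 and -0.67, adjusted p = 0.748 each by limma). CYP51A1, the sterol demethylase, averaged 27.7 ± 10.8 and 26.1 ± 13.6 FPKM (SD, n = 3 each), which would place it between CYP4F11 and CYP1B1. Among CYP pseudogenes, CYP4F33P was listed at 0 in both libraries numbered 1 and stood at 7.05 and 8.98 FPKM in control replicates 2 and 3 and at 1.47 and 7.79 FPKM in TP53TG1 replicates 2 and 3.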
